A study of Equus caballus with 4 samples.

Results

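The genes described here encode the mitochondrial ribosomal proteins, the protein components of the ribosome that works inside mitochondria. They were chosen by name: every non-control probe whose gene symbol begins with MRPL or MRPS and a number was taken. This gave 65 genes, of which 40 are named for the large (MRPL) and 25 for the small (MRPS) subunit, on 125 probes. The whole array holds 31040 genes or unnamed features on 43603 probes. Expression was measured in equine satellite cells, the muscle stem cells, of the *m. semitendinosus*, 3 days into differentiation (day 3). Cells of the HMB-treated group were incubated with 50 µM HMB, which is derived from leucine, for 24 h, with 3 mM H2O2 present for the final 1 h, and the control was given the same H2O2 but no HMB. Hence every cell on the arrays had met H2O2, and no cell without it was compared here. The cells came from stallions that were 6 months old. According to the methods, only the culture that scored best for viability and fusion was carried forward, so n = 4 need not stand for 4 animals, and the p-values then measure only the spread between these arrays. HMB-treated RNA carried Cy5 and control RNA Cy3 on each of the 4 arrays, all on 1 slide, therefore the treatment and the dye cannot be told apart. In the labels, the control carries 1 replicate number throughout, whereas the methods give n = 4 for the control cells. If it was 1 RNA, the errors below leave out how controls vary.

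Mitochondrial ribosomes translate the messages of the mitochondrial genome, which encode core subunits of the respiratory chain and of ATP synthase. All of their proteins are made from nuclear genes, translated in the cytosol and imported. Some, as *mrps6* or *mrpl14*, have counterparts in the bacterial ribosome, whereas others, as *mrps27* or *mrpl45*, were added in the mitochondrial lineage. The small subunit binds the message and decodes it, and the large subunit joins the amino acids and is held at the inner membrane. Muscle fibers are rich in mitochondria, and mitochondrial mass is known to rise as satellite cells differentiate.

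The probes are 60 bases long, and those shown carry the results below: the rise of *mrps6*, the falls of *mrps10*, *mrps27* and *mrps31*, and a probe whose name and description differ, labeled *mrps17*. They are written 5′ to 3′ on the transcript strand, all in lower case since no base is singled out, and the positions are those in the files on EquCab1. A position wider than 60 bases means that the probe spans a gap in the genome, as it does across a splice junction. The files do not give exons or untranslated regions.
MRPS6, A_69_P101545, chr26:11175618-11193671, minus strand: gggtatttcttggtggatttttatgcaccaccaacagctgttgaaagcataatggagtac
MRPS10, A_69_P038977, chr20:34864963-34865491, minus strand: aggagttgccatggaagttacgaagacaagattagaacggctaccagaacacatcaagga
MRPS27, A_69_P063756, chr14:91171085-91174377, plus strand: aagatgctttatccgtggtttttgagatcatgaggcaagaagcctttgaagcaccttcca
MRPS31, A_69_P123626, chrUn:281960280-281960339, plus strand: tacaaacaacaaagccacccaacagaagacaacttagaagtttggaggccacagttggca
MRPS17 by its symbol, A_69_P018352, chr13:286783-286842, plus strand: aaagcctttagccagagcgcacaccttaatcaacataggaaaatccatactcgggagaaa

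The symbol was checked against the description that the array gives for each probe. For 63 of the 65 genes, each probe was described as a mitochondrial ribosomal protein. The probe of *mrpl32* was described only as a cDNA clone. Both probes labeled *mrps17* were described as the zinc finger protein ZNF713, a different protein. The value under this symbol is therefore not taken here as that of the ribosomal protein. The main counts of called genes and the difference between the subunits are given with and without it. All other counts and medians of the members include it.

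Values are log2 ratios of HMB-treated over control, normalized within each array by the scanner software, and a positive value means higher expression with HMB. A probe was tested if Cy5 or Cy3 was well above background on all arrays. This left 124 of the 125 member probes and all 65 genes, whose tested probes were averaged, and 17451 genes in all. The ratio was tested against 0 with limma, and calls needed an FC of 1.3 or more (0.38 on the log2 scale) and, after Benjamini-Hochberg correction over all genes, an adjusted p of at most 0.05. The share of spots above background was 57.6% to 60.6% in Cy3 and 55.2% to 61.8% in Cy5, and 0 member spots were marked as outliers. With 4 arrays, the precision of each value is limited.

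Markers of muscle and of other cell types also moved between the groups. Of 8 tested muscle markers, 6 were called lower with HMB, among them *myf5* (−1.63) and the embryonic myosin *myh3* (−1.38), and the median was −1.02. The markers *myog* (0.03) and *myod1* (0.10) did not fall and were not called (limma, adjusted p = 0.805 and 0.368). The summed signal of the 8 markers lay between 194513 and 216945 in the control channel and between 81475 and 124524 in the HMB channel. Of 7 fibroblast markers, 5 were called higher, with a median of 0.74, and their summed signal was 416972 to 507214 in the control and 410760 to 641545 with HMB. Of the adipocyte and endothelial markers on the array (4 and 5), 0 passed the signal filter, *adipoq*, *pecam1* and *cdh5* included. The leukocyte markers *cd3e*, *cd79a*, *csf1r* and *itgam* did not pass it either. Only *cd68*, known from macrophages, was tested among them, at 0.88. Its signal was dim, at 54.4 to 91.3 in the control and 91.1 to 186 with HMB. The 2 tested pericyte markers were not called. In bulk RNA, fewer cells of a type and less RNA per cell cannot be told apart, and the part of these shifts in the values of the ribosomal proteins was not tested.

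Mitochondrial ribosomal protein genes differed little between the groups. Of the 65 genes, 59 lay within an FC of 1.3 (90.8%, against 70.1% of all genes tested). Called were 6 (9.23%), against 28.8% of all genes tested. A single gene, *mrps6*, was called higher, and 5 were called lower (*mrps10*, *mrps17*, *mrps27*, *mrps31* and *mrpl14*). Among all genes, 12.7% were called higher and 16.1% lower. Without the probe described as a zinc finger protein, 5 members were called, 4 of them lower. The median log2 ratio of the members was −0.10, and that of all genes −0.06. The ratio was below 0 in 52 of the 65 members (80%) and in 57.1% of all genes. It was below 0 on all 4 arrays in 29 members and above 0 on all in 4, against 6307 and 4361 of the 17451 genes. A further 12 members passed the adjusted p but not the FC, 11 of them lower and *mrpl45* higher, as did 3039 of all genes. The counts depended on the processing. Scaled to spike-in RNA, which shifted all genes down, 60 members were called, all lower, and 73.8% of all genes. With each array left out in turn, 3 to 9 members were called, and 26.9% to 29.0% of all genes. The number of called members was 3 when the background was corrected with normexp before loess and 2 when it was left in, and the share of all genes was 13.8% and 17.9%. Tested against an FC of 1.3 in place of 0 with limma's treat, 0 members were called (3 at an unadjusted p under 0.05), against 11.1% of all genes. The methods' t-test called 4 members and 19.8% of all genes.

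**Figure D1:**
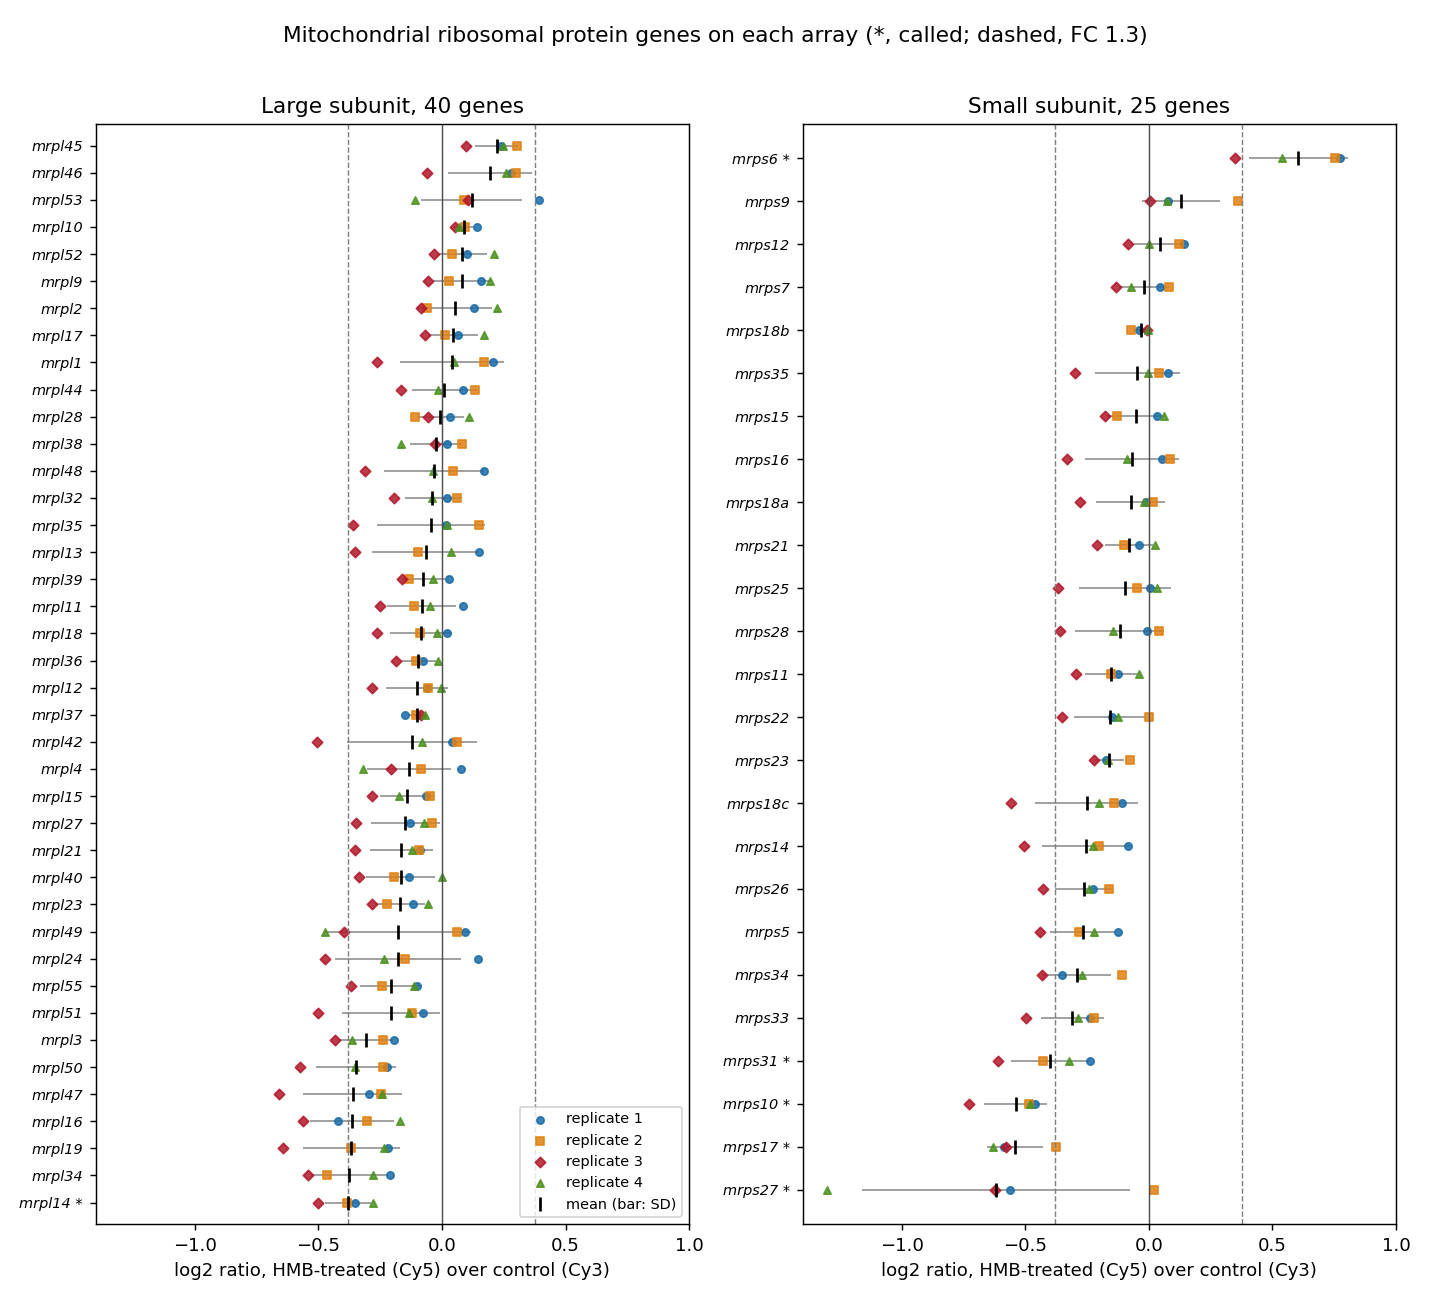
Log2 ratio (x axis) of HMB-treated over control for each gene (y axis) of the large and the small subunit, with a symbol for each of the 4 arrays, a black tick for the mean and a bar for the SD. Dashed lines mark an FC of 1.3 and an asterisk a called gene. Most means lie between the dashed lines, *mrps6* stands to the right at 0.60, and replicate 3 is the leftmost array for 56 of 65 genes. When the arrays were scaled to spike-in RNA, the genes right of 0 other than *mrps6* that the text names moved left of 0.

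The protein of *mrps6* is the counterpart of bacterial S6 in the small subunit. Its log2 ratio was 0.77, 0.75, 0.35 and 0.54 on replicates 1 to 4, so it was higher with HMB on each array, and least so on replicate 3. The mean was 0.60 ± 0.20 (SD, n = 4), an FC of 1.52 (limma, adjusted p = 0.00278). All 9 probes of the gene were tested, and their means lay between 0.52 and 0.69. They fall into clusters that share most of their bases and are therefore not independent measures. On the probe shown above, A_69_P101545, the control signal was 699, 655, 861 and 512 and the HMB signal 1215, 1071, 1148 and 827 on replicates 1 to 4. The HMB signal was the higher on each array, although its lowest value, on replicate 4, lay below the highest control value. *mrps6* was 0.66 above the median of all genes. Scaled to spike-in RNA, which lowered the median of all genes from −0.06 to −0.55, the ratio of *mrps6* itself was 0.12 and was not called (adjusted p = 0.249).

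The nearest tested probes on each side of those of *mrps6*, on the same strand of chromosome 26, were also higher with HMB. These probes were looked up after the value of *mrps6* was known, and no test of the region was made. Downstream of the *mrps6* probes, A_69_P111586 (chr26:11175081-11175140) had a mean of 0.59 and A_69_P111587 a mean of 0.48, and the files give both only an accession. Untranslated regions are not given, and whether both read the transcript of *mrps6* itself was not tested. Upstream of the *mrps6* probes, A_69_P114606 (chr26:11210206-11210265) was at 1.32 ± 0.28 (SD, n = 4). Next on this side was *slc5a3*, the sodium and myo-inositol cotransporter, known to respond to osmotic stress. Its ratio was 1.34, 1.40, 1.23 and 1.63 on replicates 1 to 4, with a mean of 1.40 (adjusted p = 6.81e-05). The means of its 3 probes differed, at 1.03, 2.50 and 0.68, and the control signal of the highest was not well above background on any array, so that its ratio is less certain. In the RefSeq annotation of the TB-T2T assembly, the spans of *slc5a3* and *mrps6* overlap. Farther out, no tested probe read in this region reached the FC upward. The 5 probes of *smim11* on the same strand had means between −0.28 and −0.24. On the other strand, *rcan1* was at −0.17, and the 3 probes of *atp5o*, a subunit of ATP synthase, lay between −0.32 and −0.20. Also on that strand, A_69_P103481 was at 0.17 and the 2 probes of *cryzl1* at 0.10 and 0.17.

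**Figure D2:**
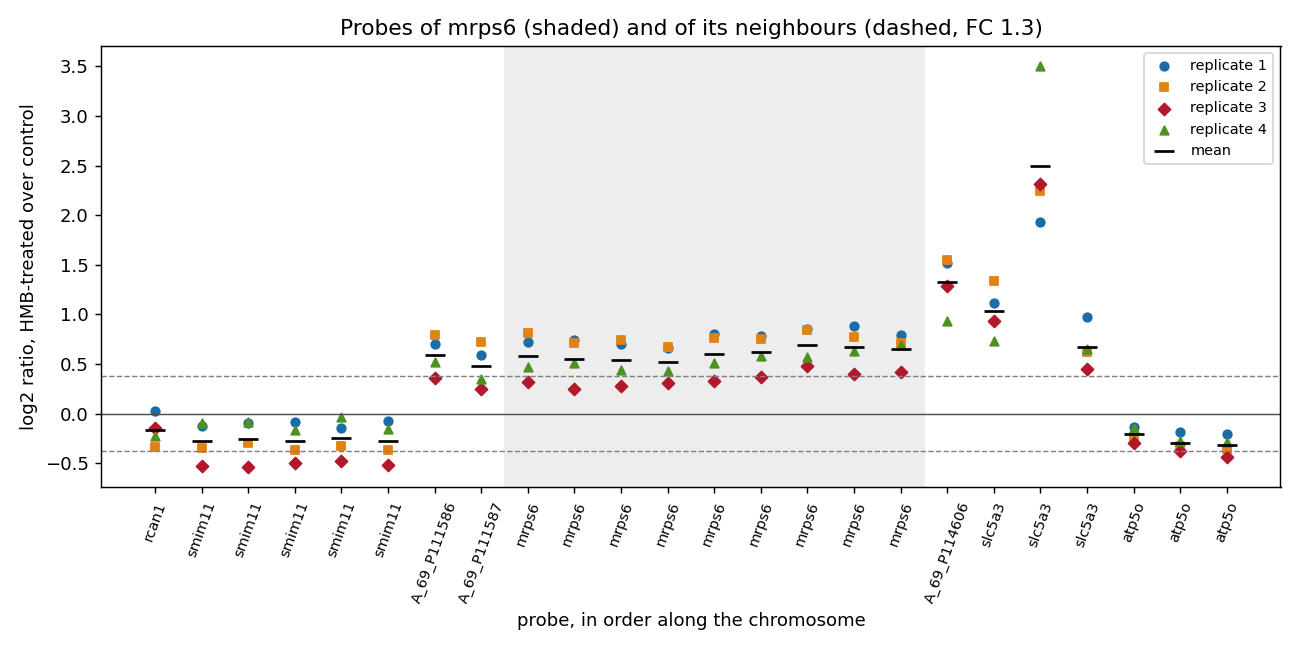
Log2 ratio (y axis) of HMB-treated over control on each of the 4 arrays, with a tick for the mean. Dashed lines mark an FC of 1.3. The tested probes of *mrps6* (shaded) and others near them are in their order along the chromosome (x axis, not to scale). Each probe from A_69_P111586 to *slc5a3* is above 0 on all arrays, and those of *smim11* and *atp5o* are below 0.

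Of the falls, that of *mrps10*, the counterpart of bacterial S10, was called in the most ways of processing. Its ratio was −0.46, −0.49, −0.73 and −0.48 on replicates 1 to 4, below 0 on each, with replicate 3 apart from the rest. The mean was −0.54 ± 0.13 (SD, n = 4), an FC of 1.45 (limma, adjusted p = 0.00192). On A_69_P038977, the control signal was 2207, 2180, 2935 and 2193 and the HMB signal 1624, 1603, 1769 and 1579, so the groups did not overlap. The other probe of the gene had a mean of −0.55, against −0.52 on this one. The call held in 22 of the 23 other ways of processing, and only treat did not call it (adjusted p = 0.217). Some of these ways alter only which genes count as members of a subunit or of the group, and could not change the call of a gene.

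The remaining calls in the small subunit rested on less. The product of *mrps31* belongs to the part of the small subunit that bacteria lack. Its ratio was −0.24, −0.43, −0.61 and −0.32, and the mean was −0.40 ± 0.16 (SD, n = 4; limma, adjusted p = 0.00849). Its 2 probes had means of −0.51 and −0.29, the widest gap between the probes of a member, and the second, brighter probe did not reach the FC. The call was lost in 7 of 23 other ways of processing, among them the methods' t-test (adjusted p = 0.0511) and normexp, with which the ratio was −0.24. *mrps27* encodes an RNA-binding protein that mitochondria added to the small subunit. Its ratio was −0.56, 0.02, −0.62 and −1.30, so replicate 2 showed no fall, and the mean was −0.62 ± 0.54 (SD, n = 4; limma, adjusted p = 0.0412). Its only probe was dim, with signals of 46.8 to 76.6 in the control and 28.6 to 49.7 with HMB, and the HMB signal was well above background on 3 of 4 arrays. Without replicate 1, 3 or 4, *mrps27* was not called (adjusted p = 0.0727, 0.121 and 0.0818), nor was it with the methods' t-test (adjusted p = 0.181).

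For the symbol *mrps17*, the ratio of the probe described as ZNF713 was −0.58, −0.38, −0.58 and −0.63. The mean was −0.54 ± 0.11 (SD, n = 4; limma, adjusted p = 0.00163). It was dim as well, with 57.1 to 83.0 in the control and 38.1 to 55.6 with HMB. With normexp, the ratio was −0.14 and was not called (adjusted p = 0.083). The second probe of this symbol was not well above background in either channel on any array and was not tested.

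In the large subunit, 1 of 40 genes was called. It was *mrpl14*, whose product lies at the face that meets the small subunit. The ratio was −0.35, −0.38, −0.50 and −0.28, and the mean was −0.38 ± 0.09 (SD, n = 4), an FC at the limit of 1.3 itself (limma, adjusted p = 0.00512). It was not called in 6 of 23 other ways of processing, including without replicate 2 or 3. Genes just inside and outside that limit barely differed. *mrpl34* was at −0.37 ± 0.16 and *mrpl19* at −0.37 ± 0.20 (adjusted p = 0.0103 and 0.0169), and neither reached the FC. *mrpl34* encodes the counterpart of bacterial L34, and its 2 probes had means of −0.47 and −0.28. For *mrpl19*, they were −0.36 and −0.37. The genes *mrpl16*, *mrpl47*, *mrpl50* and *mrpl3* followed, between −0.36 and −0.31.

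At the other end of the large subunit, *mrpl45*, *mrpl46* and *mrpl53*, all without a bacterial counterpart in name, had the highest ratios. *mrpl45*, whose product holds the ribosome to the inner membrane at the exit of the new chain, was at 0.24, 0.31, 0.10 and 0.25 on replicates 1 to 4. Its mean of 0.22 ± 0.09 (SD, n = 4) passed the test but not the FC (limma, adjusted p = 0.0329). *mrpl46* was at 0.28, 0.30, −0.06 and 0.26, with a mean of 0.19 ± 0.17 (adjusted p = 0.0983), and its 5 overlapping probes gave means of 0.16 to 0.24. *mrpl53* was at 0.12 ± 0.21 (adjusted p = 0.319). In the small subunit, the next after *mrps6* were *mrps9* at 0.13 ± 0.16 and *mrps12*, whose product lies at the decoding center, at 0.05 ± 0.11 (adjusted p = 0.225 and 0.605). Scaled to spike-in RNA, these 5 ratios turned negative, between −0.44 and −0.26. Each was above the median of all genes as without the scaling, which shifts all genes of an array alike.

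The rest of the members lay close together. *mrpl10* and *mrpl12*, which form the stalk that takes up translation factors, were at 0.09 and −0.10. The related *mrps18a*, *mrps18b* and *mrps18c*, of which the product of the first sits in the large subunit despite its name, were at −0.07, −0.03 and −0.25. The 24 members with several tested probes had no probe means of opposite sign, and the widest gap, in *mrps31*, was 0.23. Over the members, the ratio had a Pearson's r of 0.09 with the GC content of the probes (n = 65 genes on shared arrays, which are not independent).

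The large and the small subunit were then compared. The median log2 ratio was −0.10 over 40 large and −0.15 over 25 small subunit genes. The difference, large minus small, was 0.05, and on replicates 1 to 4 it was 0.11, −0.01, 0.07 and 0.07 (SD 0.05, n = 4), so its sign was not the same on all arrays. Without *mrps17* it was 0.04, and with *mrps18a* counted in the large subunit, where its product sits, it was 0.06. In the other ways of processing it lay between 0.03 and 0.07. Below 0 were 30 of the 40 large and 22 of the 25 small subunit genes. Called were 1 of 40 (2.5%) and 5 of 25 (20%), or 4 small subunit genes without *mrps17*, both below the 28.8% of all genes. The spread of the small subunit was the wider, from −0.62 to 0.60, against −0.38 to 0.22 in the large subunit. No test was made of the subunits, since genes on the same arrays are not replicates.

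The members were also divided by number into those with a bacterial counterpart (*mrpl1* to *mrpl36*, *mrps1* to *mrps21*) and those of mitochondria alone, a division that misplaces *mrpl47*, a relative of bacterial L29. The medians were −0.09 over 39 and −0.14 over 26 genes. The 10 small subunit genes of mitochondria alone had a median of −0.21, each mean was below 0, and 6 were below 0 on all arrays. For the 16 of the large subunit, the median was −0.09, and 11 means were below 0.

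Replicate 3 stood apart for these genes. The median over the members was −0.01, −0.08, −0.30 and −0.07 on replicates 1 to 4, whereas that of all genes stayed between −0.07 and −0.05. Replicate 3 was the lowest array for 56 of 65 members (86.2%) and for 25.2% of all genes with 4 values. It was the highest for 0 members. This was not particular to the members. In lists described below, replicate 3 also had the lowest median for mitochondrial ribosomal proteins under other symbols (−0.31) and translation factors (−0.35). The same held for assembly factors (−0.22) and genes of mitochondrial DNA (−0.32). The tRNA synthetases with amidotransferase subunits were lowest on replicate 4 (−0.45, against −0.40), and the cytosolic ribosomal proteins on replicate 2 (0.03, against 0.04). The median control signal of the member probes was 1833, 1821, 2449 and 1742 on replicates 1 to 4, and the HMB signal was 1755, 1646, 1881 and 1604. So both channels were brightest on replicate 3, the control by more. Over all tested probes, both channels were brightest on replicate 3 as well, but alike there, at 505 and 509, against 388 to 432 on the others. The muscle markers were least low on the same array, with a median of −0.70 against −1.18 to −1.05 on the others. The part of these differences in the ratios of the members was not tested. Without replicate 3, 3 members (2 of them lower) and 26.9% of all genes were called, and the median of the members was −0.05 and lay 0.01 above that of all genes, where with all arrays it lay 0.04 below. The arrays correlated across the members with a Pearson's r of 0.53 to 0.78 (n = 65 genes, not independent replicates).

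**Figure D3:**
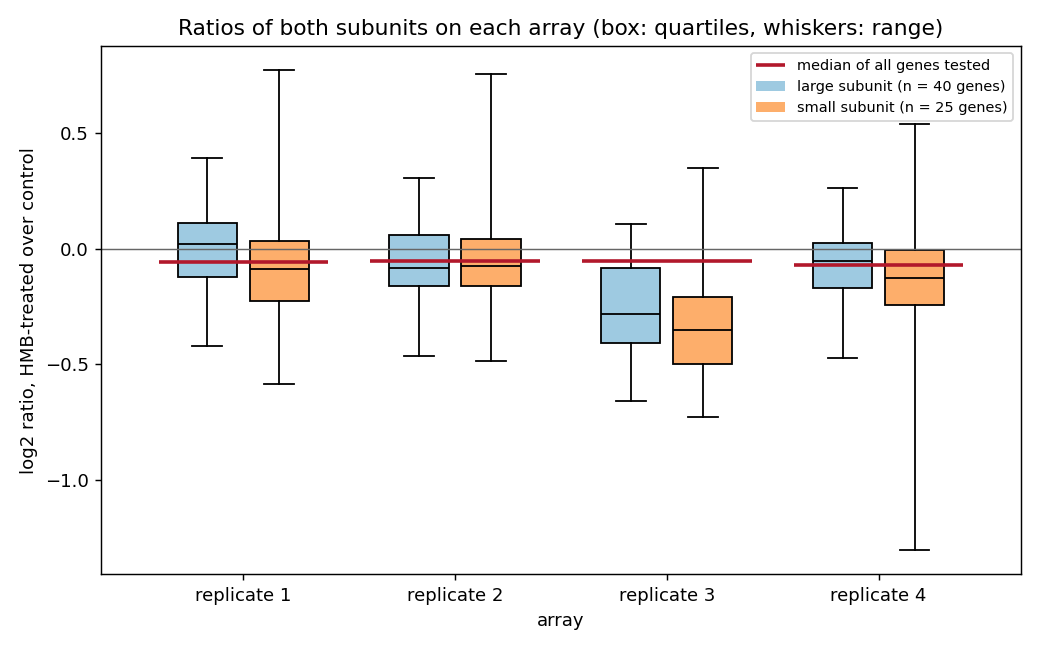
Log2 ratio (y axis) of HMB-treated over control for the genes of the large (blue) and small (orange) subunit on each array (x axis), with boxes for the quartiles, a black line for the median and whiskers for the range. Red lines give the median of all genes tested. On replicate 3, both medians, −0.28 and −0.35, lie below the red line at −0.05, whereas on the other arrays they lie near it.

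Other genes of mitochondrial translation were read from the same fit, in lists written with earlier results of these arrays known. Of the mitochondrial ribosomal proteins that carry other symbols, 4 were on the array and tested. Of these, 1 was called (25%, against 28.8% of all genes), *chchd1* at −0.43 (limma, adjusted p = 0.00433). *dap3*, a GTP-binding protein of the small subunit, was at −0.20 ± 0.13 (adjusted p = 0.0662). Of 11 translation factors, 3 were called (27.3%, near the 28.8% of all genes), with a median of −0.26. All 3 were lower, and 16.1% of all genes were called lower. Among these, *mtif2*, the initiation factor that brings the first tRNA, was at −0.50, and *guf1*, an elongation factor, at −0.48 (adjusted p = 0.00269 and 0.00198).

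The next list holds the mitochondrial aminoacyl-tRNA synthetases, which load tRNAs with amino acids, and the subunits of the amidotransferase that completes the loading of glutamine. Of 12 tested, 6 were called, all lower (50% against 16.1% of all genes called lower), with a median of −0.36, and all 12 means were below 0. Of the 9 synthetases among them, 4 were called, with a median of −0.28, and of the 3 amidotransferase subunits, *pet112* and *qrsl1* were called. The ratio of *nars2*, which loads asparagine, was −0.99, −1.03, −1.28 and −0.86, well under 0 on each array (mean −1.04, adjusted p = 0.000242). *hars2*, which loads histidine, was at −0.60 (adjusted p = 0.000792). With normexp, 0 of these 12 genes were called, and with the background left in, 1 was. In both, 0 translation factors were called, but the medians stayed below 0, at −0.18 and −0.20 for this list and at −0.15 and −0.14 for the factors. Scaled to spike-in RNA, 12 of 12 and 9 of 11 were called lower.

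Of 30 factors that assemble the mitochondrial ribosome or handle its RNA, 7 were called lower and 1 higher (26.7%, near the 28.8% of all genes), with a median of −0.13. The count of lower calls was 3 with normexp or with the background left in, 1 with treat and 27 scaled to spike-in RNA. *lrpprc*, which keeps mitochondrial messages stable, was at −0.80, and *fastkd2*, needed for the large subunit, at −0.55 (adjusted p = 0.000774 and 0.000978). *pnpt1*, which trims RNA in mitochondria and is also known as an interferon-induced gene, was at 1.64, 1.70, 1.66 and 1.34, with a mean of 1.58 (adjusted p = 4.2e-05). Of 9 genes that transcribe or copy mitochondrial DNA, 3 were called, all lower, and the median was −0.32. This was 33.3%, against 28.8% of all genes called and 16.1% called lower. Among the 3 were *tfb2m* at −0.44 and *tefm* at −0.40 (limma, adjusted p = 0.0149 and 0.00811). With normexp or with the background left in, 0 of the 9 were called, and scaled to spike-in RNA, all 9 were lower.

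The cytosolic ribosomal proteins, which build the other ribosome of the cell, were on the other side of 0. Of 61 genes, 31 were above 0 on all arrays and 6 below, and the median was 0.07. Of the 61, 1 was called (1.64%, against 28.8% of all genes). It was *rpl10l* at 0.56 (limma, adjusted p = 0.00448), a gene whose near copy could share its probes. With median centering in place of lowess, 56 of the 61 genes were called higher, with a median of 0.70. Scaled to spike-in RNA, 41 were called lower, and the median of the 61 genes was −0.42. This scaling shifts all genes of an array alike, so their gap of 0.13 above the median of all genes could not change.

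**Figure D4:**
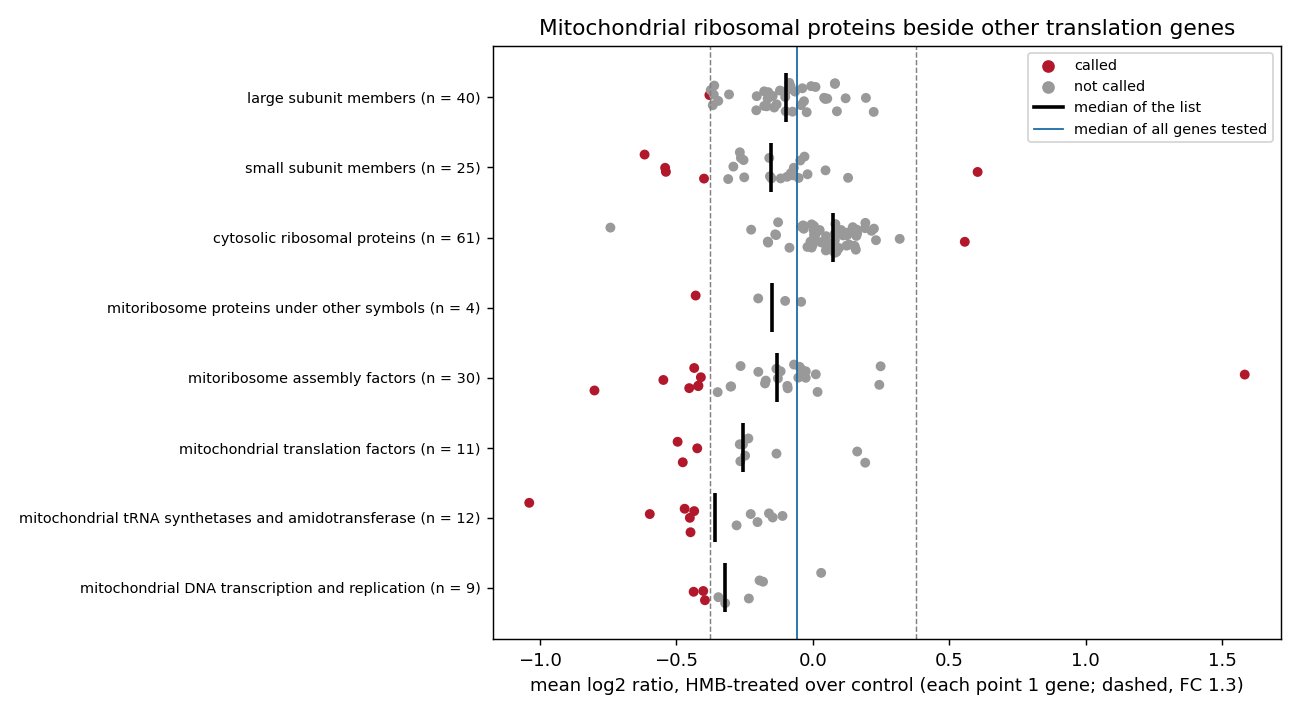
Mean log2 ratio (x axis) of HMB-treated over control for each gene of both subunits and of 6 other lists (y axis), with called genes in red, others in gray, a black line for the median of a list and dashed lines at an FC of 1.3. The blue line is the median of all genes, −0.06. The medians of the tRNA synthetases with amidotransferase subunits (−0.36) and of the genes of mitochondrial DNA (−0.32) lie left of those of both subunits (−0.10 and −0.15), and the cytosolic ribosomal proteins lie mostly right of 0 (median 0.07), though left of it when scaled to spike-in RNA (−0.42).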

How the data were processed

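RNA from HMB-treated (Cy5) and control (Cy3) equine satellite cells was hybridized to 4 Agilent horse arrays, 1 replicate each. The intensity values that the authors deposited are scanner signals of each spot, as read and after background subtraction and linear and lowess normalization in Feature Extraction 10.10.1.1 (per the file headers, with EquCab1 positions). The deposited log10 ratios of Cy5 over Cy3 come from the same software, and the authors' table of normalized log10 values was identical to them for the members. Lowess removes a shift shared by most genes. The log2 values were computed here from the deposited log10 ratios, multiplied by 3.32.

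Control and marked spots were left out, spots of a probe were averaged, and a gene is the mean of its probes that passed the signal filter (either channel, all 4 arrays) and had at least 3 ratios. The test was limma 3.58.1 in R 4.3.3 (linear model with an intercept, empirical Bayes, Benjamini-Hochberg over 17451 genes), checked on simulated data. The study's methods use a t-test at the same limits, run here as an alternative. Called meant an adjusted p of at most 0.05 and an FC of at least 1.3. Named genes are all called members, the 3 highest and 3 lowest of each subunit, and at most 2 called genes in each direction from each other list. Further members and neighbors were named beyond this rule after their values were seen. The members, lists and rule were chosen with earlier results of these data known. The alternatives covered the test, the background correction, the normalization, the probe filter, the averaging of probes, the list of members and each replicate left out. Gene symbols are those of the array. The miRNA arrays and other assays of the study were not used here.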

Additional observations from a re-analysis of the deposited data

Results flagged for a closer look

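For *mrps10* and *mrpl46*, 1 array lay far from the other 3. The gap to the nearest array, as a share of the whole range, was 0.908 for *mrps10* (−0.73 on replicate 3, −0.49 to −0.46 on the others) and 0.890 for *mrpl46* (−0.06 on replicate 3, 0.26 to 0.30 on the others), above the critical value of Dixon's test. Of the 65 members, 6 exceeded it, each with replicate 3 as the lowest array (also *mrpl47*, *mrpl51*, *mrpl21* and *mrps18a*). Chance gives such a gap in about 1 of 20 genes, and the members share the array.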

How the results depend on the processing

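All values rest on 4 arrays with 1 dye orientation, and dim probes, as those labeled *mrps27* and *mrps17*, have a less certain ratio than bright ones. Each array holds both RNAs and gives 1 ratio, so the test of the ratio against 0 is already paired within the array. No further pairing was made. The large minus small difference was above 0 in each of 23 alternatives (0.03 to 0.07). Several of them could not change it, as those that alter only the test or shift all genes of an array alike. Between the arrays its sign did differ, with −0.01 on replicate 2. The median of the members stayed below 0, between −0.59 and −0.01. *mrps6* was called in 21 of 23 alternatives, the exceptions being treat and the scaling to spike-in RNA, and *mrps10* in 22. Alternatives that altered only the list of members could not change the call of a single gene. Leaving out *mrps17* and counting *mrps18a* in the large subunit were chosen after seeing the data.

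Of the members, 6 were called, 1 higher and 5 lower. The methods' t-test called 4, of which 3 were lower. Treat called 0 in either direction (limma treat, 3 at an unadjusted p under 0.05). Normexp with loess called 3 (2 lower) and loess without background correction 2 (1 lower), and 13.8% and 17.9% of all genes. Median centering without lowess called 3 lower. Scaled to spike-in RNA, 60 were called lower and 0 higher, the median of the members was −0.59, and 73.8% of all genes were called. In this setting the median of all genes fell from −0.06 to −0.55. The median of the members minus that of all genes was −0.04 as before. It could not change, since this scaling shifts all genes of an array alike. It turned *mrpl45* (−0.26), *mrpl46* (−0.29), *mrpl53* (−0.37), *mrps12* (−0.44) and *mrps9* (−0.36) negative. No filter on dim probes gave 16.6% of all genes called. With each replicate left out in turn, 3 to 9 members were called, 2 to 8 of them lower, and 26.9% to 29.0% of all genes. Without replicate 1 or 4, 8 were lower, and without replicate 3, 2 were. The causes were not tested.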
